A study of Mus musculus with 6 samples.

Results

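The 8 genes described here, F13a1, Hp, Cybb, Igsf6, Trem3, Tifab, Ly6c2 and Lyz2, are genes of the monocyte lineage, and all 8 were found by symbol among the 32285 genes of the deposited matrices. They were chosen by their level in AML against PBS libraries of these same cells, so every AML against PBS value of theirs is a description and carries no test. The cells were healthy host hematopoietic stem and progenitor cells (HSPCs), sorted as lineage-negative, cKit+ and Sca1+ (LSK) from the bone marrow of female C57BL/6J (CD45.1) mice of 8 to 12 weeks. PBS mice received PBS, and AML mice received 1000000 C1498 cells, a cultured murine acute myeloid leukemia line that carries the CD45.2 allele, and marrow was taken at day 21. Both groups were unconditioned hosts of the same genotype, with 3 libraries per group, and C1498 is a single cell line, so that the AML group is 1 model of leukemia. Single-cell libraries were made with Chromium GEM V3 chemistry, which tags each RNA molecule with a unique molecular identifier (UMI).

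Monocytes arise in the marrow from multipotent progenitors through granulocyte-monocyte and monocyte progenitors, under the control of factors such as PU.1, IRF8 and KLF4. Within the LSK gate, the multipotent progenitors called MPP2 and MPP3 are biased toward myeloid cells and MPP4 toward lymphoid cells. The genes divide by role. F13a1 encodes the A subunit of coagulation factor XIII, and Hp encodes haptoglobin, which binds free hemoglobin. Cybb encodes gp91phox, the catalytic subunit of the phagocyte NADPH oxidase, and Lyz2 encodes lysozyme M, an antibacterial enzyme. Igsf6, Trem3 and Ly6c2 encode surface proteins: an immunoglobulin superfamily receptor, a receptor of the TREM family that signals through DAP12, and the Ly6C antigen used to define inflammatory monocytes. Tifab encodes a relative of the TRAF6-binding adaptor TIFA and restrains signalling to NF-kB.

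The authors' cell table held 16822 of the 48510 deposited barcodes, and these kept cells carried a median of 2393 to 9586 UMIs in 5 libraries. AML replicate 2 had no cell in the table, so that 3 PBS libraries were set against AML replicates 1 and 3. AML replicate 1 contributed only 693 cells and PBS replicate 2 only 934, against 3959 to 6838 in the other libraries. In the matrices, 6937 barcode sequences occurred in more than 1 library, including 40.5% of the barcodes of AML replicate 2 and all 934 kept cells of PBS replicate 2. Only 36 barcodes were kept in more than 1 library. The labels do not say whether each library is 1 mouse or a pool, so that p-values measure the spread between these libraries. LSK marker genes summed to 1151 to 1470 UMIs per 1000000 UMIs of the library (CPM) in the kept cells of the 5 libraries.

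In the kept cells, 7 of the 8 genes were higher in both AML libraries than in any PBS library, by 3.22-fold for Ly6c2 to 9.92-fold for F13a1. Lyz2 went against this direction and was lower in AML. Levels are given in CPM. A separation of both AML libraries above all 3 PBS libraries was seen in 16% of the 14364 genes tested, and one in the opposite order in 13.7%. At an adjusted p under 0.05 in edgeR's quasi-likelihood test, 0.153% of genes were higher in AML and 0.00696% lower (22 and 1 genes). Nothing about the 8 genes is read from these shares, because the contrast is the one they were chosen on.

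Of the genes for plasma and antibacterial proteins, F13a1 read 4.02, 0.577 and 4.66 CPM in PBS against 34.9 and 32.9 CPM in AML. Its AML libraries lay close together and far above the PBS libraries, among which PBS replicate 2 was lowest (log2 fold change 3.31 ± 0.43, SE). Hp was at 3.05, 2.21 and 4.05 CPM in PBS and at 8.22 and 29.2 CPM in AML. Both AML values exceeded the PBS values, but AML replicate 3 alone carried most of the difference, and without it the log2 fold change was 1.37 in place of 2.68 ± 0.38. Lyz2 was at 85.9, 128 and 66.2 CPM in PBS and at 42.1 and 57.3 CPM in AML. Its groups did not overlap either, in the order opposite to the other genes (log2 fold change -0.91 ± 0.29).

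The surface and oxidase genes were sparser. Cybb was at 0.747, 0.961 and 1.54 CPM in PBS against 6.68 and 6.30 CPM in AML, with nearly equal AML libraries (log2 fold change 2.52 ± 0.40). Igsf6 was at 1.46, 0.577 and 1.32 CPM in PBS and at 5.65 and 6.74 CPM in AML, a log2 fold change of 2.39 ± 0.38. Trem3, the sparsest, was at 0.654, 0.384 and 1.10 CPM against 3.60 and 5.22 CPM, and rested on 50 UMIs in all PBS cells and 151 in all AML cells. Ly6c2 was at 4.64, 5.67 and 6.11 CPM in PBS and at 12.8 and 21.2 CPM in AML, the smallest of the 7 positive fold changes (1.69 ± 0.27). Tifab, the intracellular adaptor, was at 4.08, 2.88 and 3.03 CPM in PBS and at 20.6 and 17.6 CPM in AML. The Tifab libraries of each group stood close together, and its fold change had the smallest error (2.45 ± 0.25). Fewer cells of a type and less RNA per cell cannot be told apart in such library sums.

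**Figure D1:**
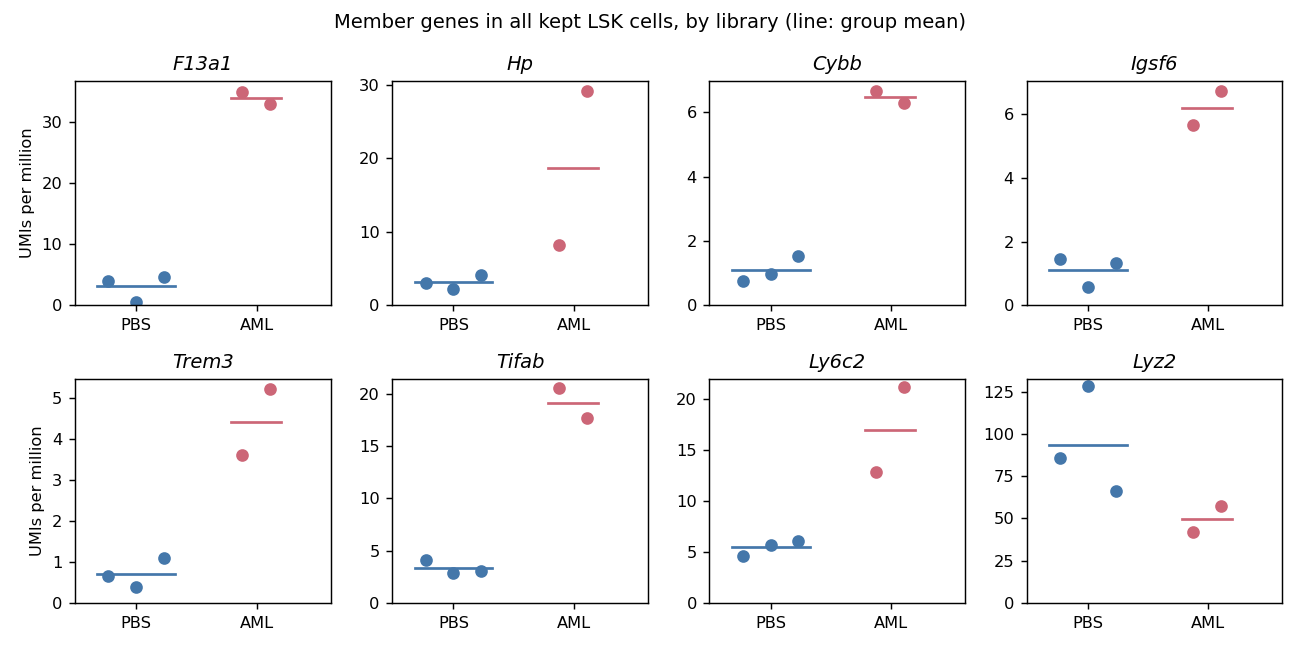
Level of each gene in UMIs per 1000000 (y axis, linear, from 0) in the 3 PBS and 2 AML libraries with kept cells (x axis). Points are libraries and lines are group means. For 7 genes both AML points lie above all PBS points, while for Lyz2 both lie below, with AML values of 42.1 and 57.3 CPM.

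The closest paralogs carried almost no reads. Lyz1 had 3 UMIs in PBS replicate 1 and 1 in PBS replicate 3, and Ly6c1 stayed between 0.467 and 0.761 CPM in the 5 libraries. Because 16.9% of the words of 50 bases in the last 500 bases of Lyz2 also occur in Lyz1, and 19.96% of those of Ly6c2 in Ly6c1, some reads of either pair may not be assignable to 1 gene, which the UMI matrices do not show.

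In GENCODE M21 on GRCm38, the build named in the submitters' processing notes, all 8 are protein-coding genes, and none overlaps another gene on its own strand. F13a1 (15 exons in its longest model) and Tifab (3 exons) share chromosome 13, at chr13:36867178-37050244 and chr13:56173704-56178885. Hp lies at chr8:109575128-109579172, Igsf6 at chr7:121064067-121074572, Ly6c2 at chr15:75108158-75111970 and Lyz2 at chr10:117277331-117282321. Cybb lies on the X chromosome at chrX:9435252-9487771. All of these are on the minus strand, and Trem3 at chr17:48247777-48258841 is on the plus strand. The 250 bases before the start were available from RefSeq (GRCm38.p6) for 6 of the 8 genes. They are shown for F13a1, with the largest fold change, for Tifab, with the smallest error, and for Ly6c2, whose difference depended most on the choice of cells. Capitals mark AGGAAG on either strand, the core that the monocyte factor PU.1 and other ETS factors share.
F13a1, chr13:37050245-37050494, minus strand: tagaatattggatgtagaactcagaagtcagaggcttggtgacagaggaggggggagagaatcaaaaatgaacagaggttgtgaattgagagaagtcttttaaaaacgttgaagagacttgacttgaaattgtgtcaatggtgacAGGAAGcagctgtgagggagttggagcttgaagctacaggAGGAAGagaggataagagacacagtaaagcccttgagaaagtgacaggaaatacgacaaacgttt
Tifab, chr13:56178886-56179135, minus strand: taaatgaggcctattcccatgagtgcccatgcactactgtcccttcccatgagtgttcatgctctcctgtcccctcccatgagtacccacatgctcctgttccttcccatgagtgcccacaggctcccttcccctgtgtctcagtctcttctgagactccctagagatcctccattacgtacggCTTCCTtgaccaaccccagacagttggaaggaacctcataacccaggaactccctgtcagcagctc
Ly6c2, chr15:75111972-75112221, minus strand: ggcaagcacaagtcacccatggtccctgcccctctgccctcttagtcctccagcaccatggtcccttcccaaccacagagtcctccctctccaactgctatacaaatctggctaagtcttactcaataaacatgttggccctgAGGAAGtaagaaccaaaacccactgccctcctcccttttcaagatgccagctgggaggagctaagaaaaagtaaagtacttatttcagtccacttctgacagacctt
The word was found in 5 of the 6 genes (F13a1, Igsf6, Tifab, Ly6c2 and Lyz2) and in 29.5% of all 32851 promoters of this length. Lyz2, which did not move with the others, holds it too. TTGCNNAA, a word bound by C/EBP factors, was in none of the 6 and in 9.56% of all promoters. A gene was counted if any of its promoter entries held a word, while the shares are of single entries. The counts and shares are therefore not like measures.

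Across the authors' 9 clusters, numbered 0 to 8, Cluster 4 had higher levels than the other cells in each of the 5 libraries for 6 genes, F13a1, Hp, Igsf6, Trem3, Tifab and Ly6c2, as it had for 7.2% of the genes tested. Clusters were made from these cells' own expression, so these values describe the clusters and are no test. Cluster 4 had 826 cells and held 78.6% of all F13a1 UMIs, 81.3% of Hp, 73.6% of Igsf6, 73.1% of Trem3, 57.3% of Tifab and 70.1% of Ly6c2. For Cybb the share was 41.0%, and for Lyz2 only 7.54%. These shares pool PBS and AML, and AML gave most UMIs of all but Lyz2. In the PBS libraries alone Cluster 4 held 41.3% of Tifab and 47.8% of Ly6c2 UMIs, and 73.9% to 77.9% of those of F13a1, Hp, Igsf6 and Trem3.

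Hp, F13a1, Ly6c2 and Tifab were themselves among the 10 genes that led Cluster 4 by fold over the other cells. Beside them stood the neutrophil granule genes Elane and Ctsg, the progenitor marker Ms4a3 and the basophil and mast cell genes Prss34, Mcpt8 and Hdc. Summed over a marker list, granulocyte-monocyte progenitor genes reached 6026 CPM in Cluster 4, monocyte genes 179.9 CPM, basophil and mast cell genes 351 CPM and neutrophil genes 19.0 CPM. Of the 8 monocyte markers all had at least 1 UMI there. The receptors Csf1r and Ccr2 were at 22.1 and 31.0 CPM, while Cd14 and Fcgr1, which mark mature monocytes and macrophages, were at 1.63 and 1.22 CPM. The LSK markers stood at 799 CPM, and the neutrophil marker Ly6g was at 0. Over all kept cells the monocyte markers summed to 55.7, 63.1 and 51.5 CPM in PBS and to 66.8 and 105 CPM in AML, and their part in the differences of the 8 genes was not tested. Cluster 4 is therefore called by its number here.

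Cluster 6 held another pool of Cybb and Ly6c2. Its 177 cells were led by immunoglobulin genes (Igkc, Jchain, Iglc3), and they had 52.9 CPM of Cybb and 116 CPM of Ly6c2 but 0.540 CPM each of F13a1, Igsf6 and Trem3. In the PBS libraries together, 68.1% of Cybb UMIs and 42.7% of Ly6c2 UMIs came from Cluster 6. In the AML libraries together these shares were 27.3% and 11.0%. Only 15.9% of PBS Cybb UMIs came from Cluster 4, with an exact Clopper-Pearson interval of 8.24% to 26.7%, against 50.3% (42.9% to 57.6%) in AML. Intervals of this kind cover counting error only.

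Lyz2 followed neither pattern. It was at 58.7 to 105 CPM in Clusters 0 to 5 and at 6.48 and 16.6 CPM in Clusters 6 and 7. In Cluster 5, where F13a1, Hp, Cybb, Igsf6 and Trem3 had no UMI in 339 cells, Lyz2 was at 105 CPM. A count of 0 there allows a level of up to 2.04 CPM.

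Over the authors' 4 classes, assigned from module scores of the same cells, the 7 genes other than Lyz2 were highest in MPP3. In that class F13a1 was at 17.5, 6.81 and 23.0 CPM in PBS and at 81.2 and 93.1 CPM in AML, with both AML libraries above. Hp in MPP3 did not separate, at 19.9, 32.3 and 24.5 CPM in PBS against 17.9 and 93.5 CPM in AML. Ly6c2 in MPP3 overlapped too, at 29.0, 97.0 and 42.3 CPM against 37.4 and 69.2 CPM. MPP2 came next in the levels pooled over all libraries, but in each PBS library Tifab was higher in MPP4 than in MPP2, at 3.47, 3.04 and 3.50 CPM against 3.03, 1.46 and 1.97 CPM. Cybb had at most 3 UMIs in either class of any PBS library, too few to order them. F13a1 in MPP2 was at 3.98, 0.243 and 4.25 CPM in PBS and at 19.6 and 17.9 CPM in AML, again without overlap. In MPP4 the genes other than Tifab and Lyz2 stayed at or below 4.21 CPM in every library. The HSC class had no UMI of F13a1 or Trem3 in 3152 cells, which allows up to 0.237 CPM, and 0.237 to 0.394 CPM of Hp, Cybb, Igsf6 and Ly6c2. Lyz2 was highest in the HSC class, at 111 CPM pooled and between 65.3 and 199.0 CPM by library.

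**Figure D2:**
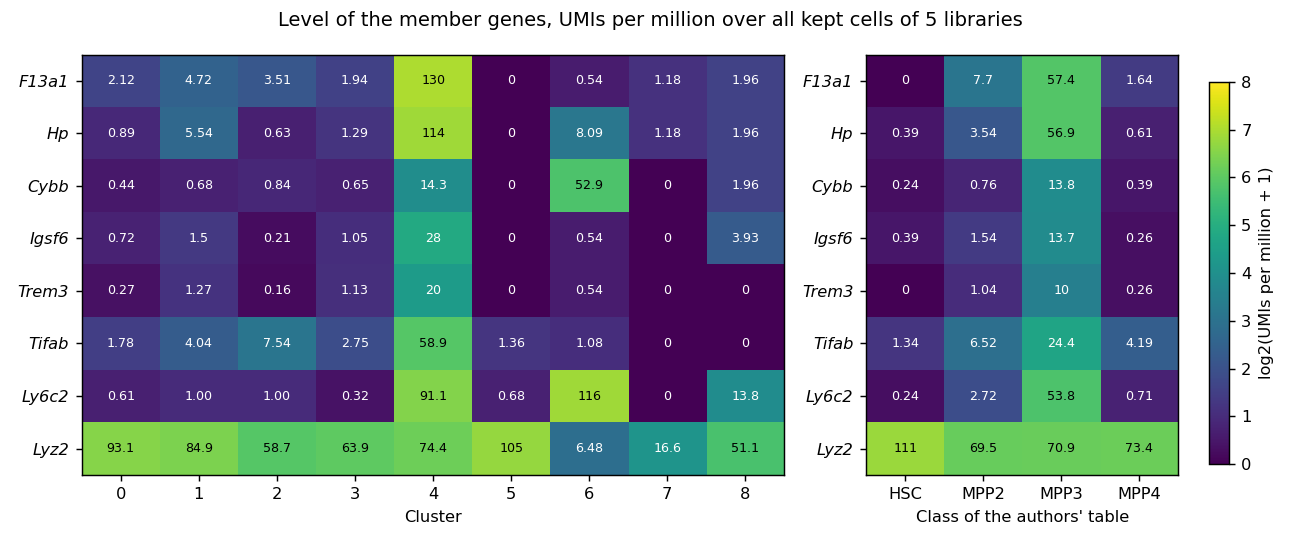
Level of each gene (rows) by cluster number and by class (columns), as UMIs per 1000000 over all kept cells of the 5 libraries. The number in each cell is the level and the color its log2(level + 1). F13a1 and Hp stand out in Cluster 4 at 130 and 114 CPM, Cybb and Ly6c2 also in Cluster 6, and Lyz2 is spread over Clusters 0 to 5.

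Cluster 4 was also larger in AML. It made up 2.88%, 2.46% and 3.41% of kept cells in the PBS libraries and 11.1% and 9.57% in the AML libraries. The MPP3 class was 11.6%, 4.39% and 9.60% of cells in PBS and 32.9% and 22.3% in AML. Both shares were larger in each AML library than in any PBS library. Since Hp, F13a1, Ly6c2 and Tifab are among the leading genes of the cluster, this is not a separate observation for them. Other values moved with these shares. The HSC class was 20.5%, 23.9% and 21.9% of cells in PBS and 3.32% and 13.7% in AML, and granulocyte-monocyte progenitor markers summed to 1063, 778 and 1345 CPM of all kept cells in PBS and to 1842 CPM in each AML library. Their part in the differences of the 8 genes was not tested. Inside Cluster 4 the genes were still not at equal levels in both groups. With both AML libraries above all PBS libraries were F13a1, Cybb, Igsf6, Tifab and Ly6c2, that is 5 of 8, where 8.78% of genes tested separated in this way. Outside Cluster 4 it was 6 of 8, namely F13a1, Hp, Cybb, Igsf6, Trem3 and Tifab, against 16.6% of genes tested. In AML replicate 1 these levels rested on 1 UMI of Igsf6, 3 of Hp and 4 of Trem3, and these separations are a description of UMIs that are not read as expression for F13a1, Hp, Igsf6 and Trem3.

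Inside Cluster 4, F13a1 was at 65.5, 11.7 and 64.3 CPM in PBS and at 203 and 178 CPM in AML. Tifab was at 38.9, 35.2 and 22.5 CPM in PBS and at 106 and 76.5 CPM in AML. For both, the lower AML library exceeded the highest PBS library. Hp in Cluster 4 was at 52.6, 61.5 and 55.8 CPM in PBS, and AML replicate 1 at 57.4 CPM lay among these while AML replicate 3 reached 161 CPM. Trem3 was likewise at 10.8, 11.7 and 14.7 CPM in PBS, with AML replicate 1 at 13.2 CPM inside that range and AML replicate 3 at 25.7 CPM above it. Lyz2 in Cluster 4 overlapped between the groups, from 65.1 to 149 CPM in PBS and at 30.9 and 67.3 CPM in AML.

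Outside Cluster 4 the levels were far lower. F13a1 was at 1.24, 0.199 and 1.07 CPM in PBS and at 12.8 and 7.45 CPM in AML. Ly6c2 overlapped there, at 2.86, 3.68 and 2.61 CPM against 2.33 and 4.301 CPM, and in AML replicate 1 it lay below all PBS libraries. Ly6c2 was the only one of the 7 that did not separate outside Cluster 4.

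**Figure D3:**
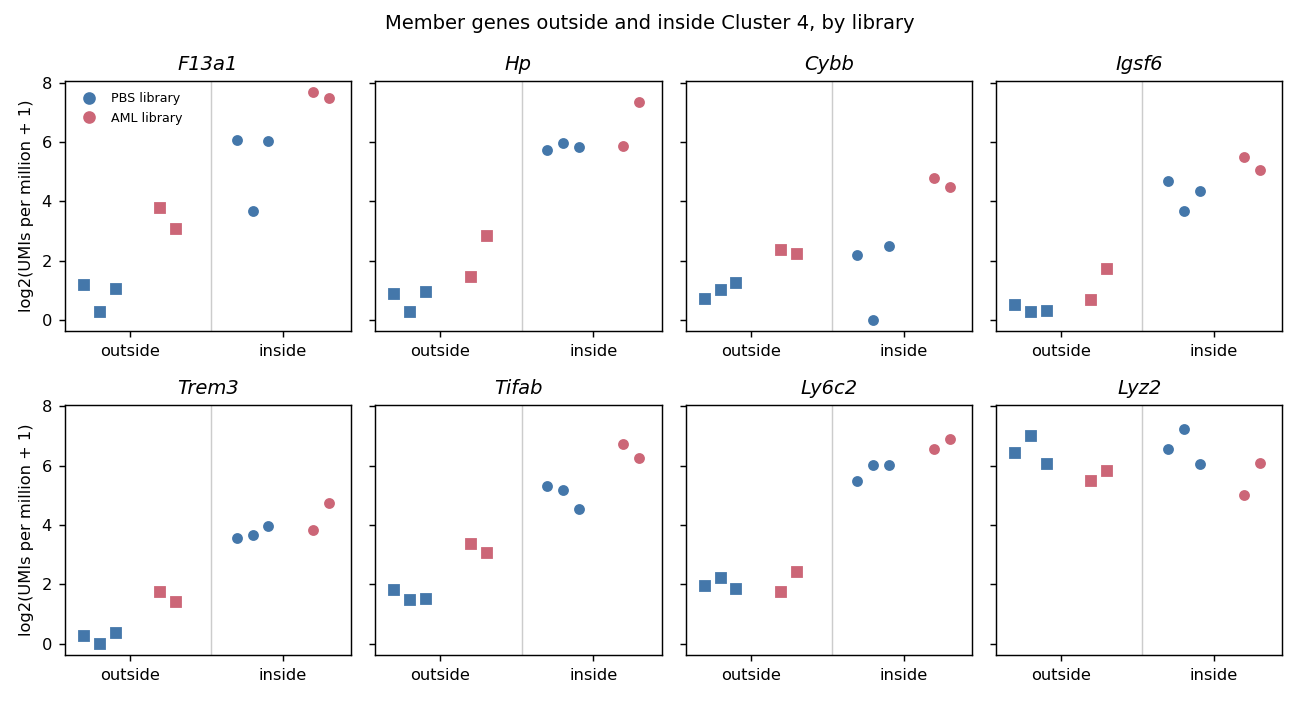
Level of each gene on a log2(UMIs per 1000000 + 1) scale (y axis) outside (squares) and inside (circles) Cluster 4, for the PBS libraries (blue) and AML libraries (red). Ly6c2 differs between groups inside the cluster and overlaps outside it, and Lyz2 is about as high outside as inside.

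The fold changes therefore depended on which cells were counted. With Cluster 4 left out, the log2 fold change of F13a1 was 3.28 ± 0.47, close to its value over all cells, and that of Hp 2.68 ± 0.51. These values rest on UMIs outside Cluster 4, which are not read as expression for F13a1 and Hp. In PBS replicate 2 they were 2 UMIs of each gene, and in AML replicate 1 they were 22 of F13a1 and 3 of Hp. A difference of these genes apart from Cluster 4 is not read from them. Tifab went from 2.45 to 1.89 ± 0.32, and Cybb from 2.52 to 1.88 ± 0.46. Ly6c2 went from 1.69 to 0.28 ± 0.36, less than its standard error. With Clusters 6 to 8 left out in place of Cluster 4, Cybb went up to 3.91 and Ly6c2 to 2.43, while F13a1 and Hp stayed within their standard errors. When Clusters 0 to 4 were each given the same weight in every library, the log2 ratio of mean levels was 2.17 for F13a1, 3.23 for Cybb, 1.59 for Tifab, 1.14 for Igsf6, 1.05 for Hp, 1.03 for Trem3 and 0.95 for Ly6c2. Of these Hp no longer separated the groups. When the share of UMIs from Cluster 4 was held at its PBS mean of 4.43%, F13a1 was at 4.08, 0.709 and 3.87 CPM in PBS and at 21.2 and 14.99 CPM in AML. Ly6c2, held in the same way, was at 4.68, 6.37 and 5.34 CPM in PBS and at 6.33 and 9.31 CPM in AML and overlapped. Lyz2 kept a log2 ratio of -0.98 and -0.92 under these weights.

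**Figure D4:**
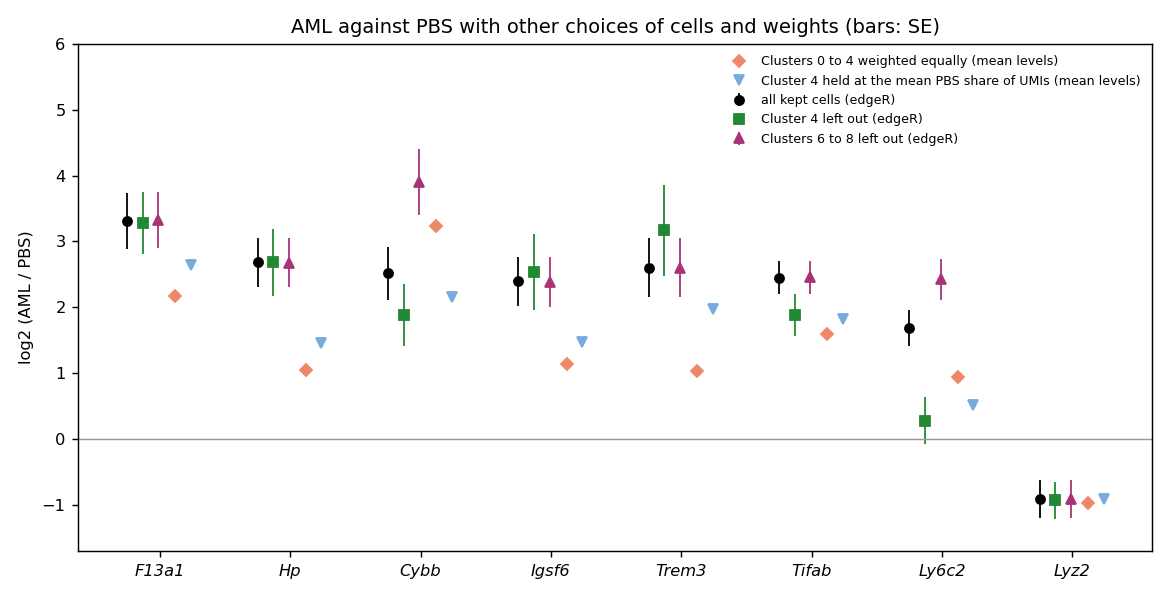
Log2 ratio of AML to PBS (y axis) for each gene (x axis) over all kept cells, without Cluster 4 and without Clusters 6 to 8 (edgeR estimates, bars are standard errors), and for ratios of mean levels with Clusters 0 to 4 weighted equally or Cluster 4 held at the PBS share of UMIs (no error bars). Ly6c2 is close to 0 without Cluster 4 (0.28), Cybb is highest without Clusters 6 to 8 (3.91), and Lyz2 is below 0 throughout. Without Cluster 4, the values of F13a1, Hp, Igsf6 and Trem3 rest on UMIs that are not read as expression.

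The share of cells with a UMI of a gene was read after each cell was thinned to 2000 UMIs, because cells in Cluster 4 were deeper in 4 of the 5 libraries (6879 to 14971 against 3959 to 9526 UMIs in the median cell). Thinning left out 125 cells of PBS replicate 1 and 80 of PBS replicate 3. In Cluster 4, 7.18%, 4.35% and 10.7% of PBS cells and 32.5% and 20.8% of AML cells had an F13a1 UMI. Outside it the shares were 0.169%, 0% and 0.168% in PBS and 2.27% and 0.866% in AML. For 0 of 911 cells, as in PBS replicate 2, a share of up to 0.329% of cells with a UMI after thinning is allowed, which does not limit the share of cells that express the gene. Before thinning, F13a1 was found in 8.70% to 50.1% of cells inside and 0.220% to 2.82% outside Cluster 4.

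Hp was detected in 4.62%, 4.35% and 9.40% of PBS cells and in 12.99% and 22.4% of AML cells of Cluster 4. For Tifab these shares were 5.13%, 0% and 3.36% in PBS and 18.2% and 13.5% in AML, and for Ly6c2 2.05%, 4.35% and 6.71% in PBS and 18.2% and 16.9% in AML. Trem3 overlapped, at 3.08%, 0% and 2.68% in PBS and 2.60% and 5.28% in AML. Igsf6, Trem3 and Cybb were seen in fewer cells, in at most 9.09%, 5.28% and 5.19% of Cluster 4 cells in any library. PBS replicate 2 had only 23 cells in Cluster 4, for which a count of 0 allows up to 13.04%.

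Free RNA can place single UMIs in cells that do not express a gene, so that Clusters 5 and 7 serve as a background. Neither had a UMI of F13a1, Hp, Cybb, Igsf6 or Trem3 after thinning, in 336 and 102 cells, which allows up to 0.893% and 2.94%, with median depths of 3667.5 and 6380 UMIs before thinning. The PBS shares of F13a1, Hp, Igsf6 and Trem3 outside Cluster 4 lay below both limits and are not read as expression. For Cybb and Ly6c2 the cells outside include Cluster 6, where 11.4% and 14.3% of 175 thinned cells had a UMI. The limits pool all libraries, and Cluster 5 had 270 PBS cells but 69 AML cells, so that they do not bound the background of the AML libraries. In AML replicates 1 and 3 the shares outside Cluster 4 were 2.27% and 0.866% for F13a1, 0.162% and 0.642% for Hp, 0.162% and 0.279% for Igsf6 and 0.487% and 0.223% for Trem3, and they are not read as expression. Tifab, with 1 positive cell among the 336 of Cluster 5 (0.298%), was found in 1.948% and 1.17% of AML cells outside Cluster 4. For Lyz2 the shares were 8.12% to 23.5% outside and 2.60% to 30.4% inside Cluster 4, with no difference of one direction in the 5 libraries. Its share in Cluster 7 was 3.92%.

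Cells with UMIs of more than 1 of the genes were also counted. Counting the 7 genes other than Lyz2 in thinned Cluster 4 cells, 21.5%, 8.70% and 26.8% of PBS cells and 64.9% and 56.5% of AML cells had at least 1 of them. At least 2 were found in 4.62%, 4.35% and 7.38% of PBS cells and in 29.9% and 24.01% of AML cells. Outside Cluster 4, at least 2 were found in 0.0153% to 0.110% of PBS cells and 0.251% to 0.325% of AML cells. The most frequent pair in Cluster 4 was F13a1 with Ly6c2, in 37 cells, or 27.4% of F13a1 cells and 39.8% of Ly6c2 cells. Igsf6 with Trem3 and Tifab with Trem3 were found in 2 cells each, and Cybb with Igsf6 in 0. The pairs pool PBS and AML cells. Levels for independent detection were not computed, so that no excess of joint detection is read from these counts.

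Cluster 4 cells were then divided by the leading genes that are not among the 8. Cells with a Prss34 or Mcpt8 UMI made up 3.59%, 13.04% and 6.71% of thinned Cluster 4 cells in PBS and 2.60% and 3.69% in AML. In the 20 such PBS cells, F13a1, Cybb, Trem3, Tifab and Ly6c2 had no UMI, and Hp was found in 1. In the 16 such AML cells, Hp was found in 4, Tifab and Ly6c2 in 2 each and F13a1 in 1, while Cybb and Trem3 had no UMI. Among cells with Elane, Mpo, Prtn3 or Ctsg and neither of those basophil genes, F13a1 was found in 10.5% of 295 PBS cells and 25.7% of 401 AML cells. Hp was found in 7.80% and 22.7% of these cells, Ly6c2 in 5.08% and 18.5%, and Tifab in 3.39% and 14.2%. These shares pool cells over libraries. The 295 PBS cells were 156, 14 and 125 by library, and 326 of the 401 AML cells came from AML replicate 3. The AML shares are therefore mainly those of 1 library. The basophil and mast cell list summed to 244, 756 and 926 CPM of Cluster 4 in PBS and to 22.1 and 191 CPM in AML. Its part in the differences was not tested. Cells with none of the 6 genes numbered 52 in PBS and 39 in AML, all 39 of them from AML replicate 3. No F13a1, Hp, Igsf6 or Trem3 UMI was found in these PBS or AML cells. Tifab was found in 9.62% of these PBS cells and 15.4% of these AML cells, and Cybb and Ly6c2 in 0% of the PBS cells and in 10.3% and 5.13% of the AML cells.

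The phase of PBS cells was not used to choose the genes, so that a test was possible there. Phase was called by the authors from expression and the calls are unevenly spread over clusters, so that the test compares cells by call and gives no measure of cycling within a cell type. G1 cells were compared with S and G2M cells of the authors' phase column within the 3 PBS libraries, with the library as a block. In edgeR's quasi-likelihood test, 30.1% of the 12838 genes tested were higher in S and G2M at an adjusted p under 0.05 and 26.6% lower. Of the 8 genes, 4 rose, 1 fell, 2 did not pass the test, and Trem3 was removed by the filter on low counts. Without that filter Trem3 was called (log2 fold change 1.87 ± 0.58, edgeR adjusted p = 0.00454). With a majority of all genes called, the count itself does not set the 8 apart.

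Of the 8 genes F13a1 had the largest log2 fold change between phase calls, from 0.663, 0.219 and 1.07 CPM in G1 to 6.47, 0.857 and 7.19 CPM in S and G2M. Its log2 fold change was 3.16 ± 0.27 (edgeR adjusted p = 1.44e-09), and it was higher in all 3 PBS libraries. In PBS replicate 2 it rested on 1 UMI in G1 and 5 UMIs in S and G2M. Igsf6 rose by 1.79 ± 0.41 (adjusted p = 0.000813), Hp by 1.40 ± 0.24 (adjusted p = 4.13e-05) and Tifab by 1.34 ± 0.22 (adjusted p = 2.03e-05) on the log2 scale in the same edgeR test. All 3 were higher in S and G2M in each PBS library. Without the library block Igsf6 no longer passed (adjusted p = 0.0518 in edgeR). Igsf6 had only 9, 0 and 7 UMIs in G1. It passed the filter on low counts by its S and G2M sums, where it was high. Without that filter its log2 fold change was 1.83 ± 0.41 (edgeR adjusted p = 4.39e-05). In Cluster 4, which held much of these genes, 73.5% of PBS cells were in S or G2M, against 31.2% to 41.1% in Clusters 0 to 2, 98.3% in Cluster 3, 55.2% in Cluster 5 and 72.2% in Cluster 7. With Cluster 4 left out, F13a1, Hp and Igsf6 had too few counts to be tested and Tifab rose by 0.75 ± 0.28 (edgeR adjusted p = 0.0235).

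Cybb fell between the same phase calls, from 1.47, 1.97 and 2.77 CPM in G1 to 0.216, 0.171 and 0.674 CPM. Its log2 fold change was -2.23 ± 0.41 (edgeR adjusted p = 9.20e-05). Cybb had only 4, 1 and 9 UMIs in S and G2M. It passed the filter on low counts by its G1 sums, where it was high. Without that filter its log2 fold change was -2.21 ± 0.45 (edgeR adjusted p = 5.34e-06). Only 7.34% of the PBS cells of Cluster 6 were in S or G2M, and without Clusters 6 to 8 Cybb had too few counts to be tested. Ly6c2 did not pass over all PBS cells (log2 fold change -0.29 ± 0.19, edgeR adjusted p = 0.187). Its direction turned with the cells counted, to 1.93 ± 0.32 (edgeR adjusted p = 2.17e-05) without Clusters 6 to 8 and to -2.59 ± 0.27 (edgeR adjusted p = 6.61e-09) without Cluster 4. Lyz2 also did not pass, with a log2 fold change of -0.10 ± 0.05 (edgeR adjusted p = 0.103).

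The share of S and G2M cells itself was 43.4%, 41.8% and 44.1% in the PBS libraries and 85.3% and 51.0% in the AML libraries. Within G1 cells alone, F13a1 was at 7.24 and 9.75 CPM in AML, above the 0.219 to 1.07 CPM of PBS, and Cybb at 10.9 and 7.23 CPM against 1.47 to 2.77 CPM. AML replicate 1 had only 102 G1 cells, and its values rested on 2 UMIs of F13a1 and 3 of Cybb, no more than the 3 counts (10.9 CPM) that a count of 0 would allow. Trem3 had no UMI there, which places it neither above nor below PBS. Ly6c2 in G1 overlapped, at 7.24 and 14.4 CPM in AML against 5.97 to 7.44 CPM in PBS. Within S and G2M cells, F13a1 was at 39.5 and 45.1 CPM in AML against 0.857 to 7.19 CPM in PBS, and Hp at 7.79 and 37.4 CPM against 3.08 to 5.62 CPM. Lyz2 in G1 cells was at 72.4 and 63.6 CPM in AML against 73.3 to 148 CPM in PBS, and the value of AML replicate 1 rested on 20 UMIs.

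**Figure D5:**
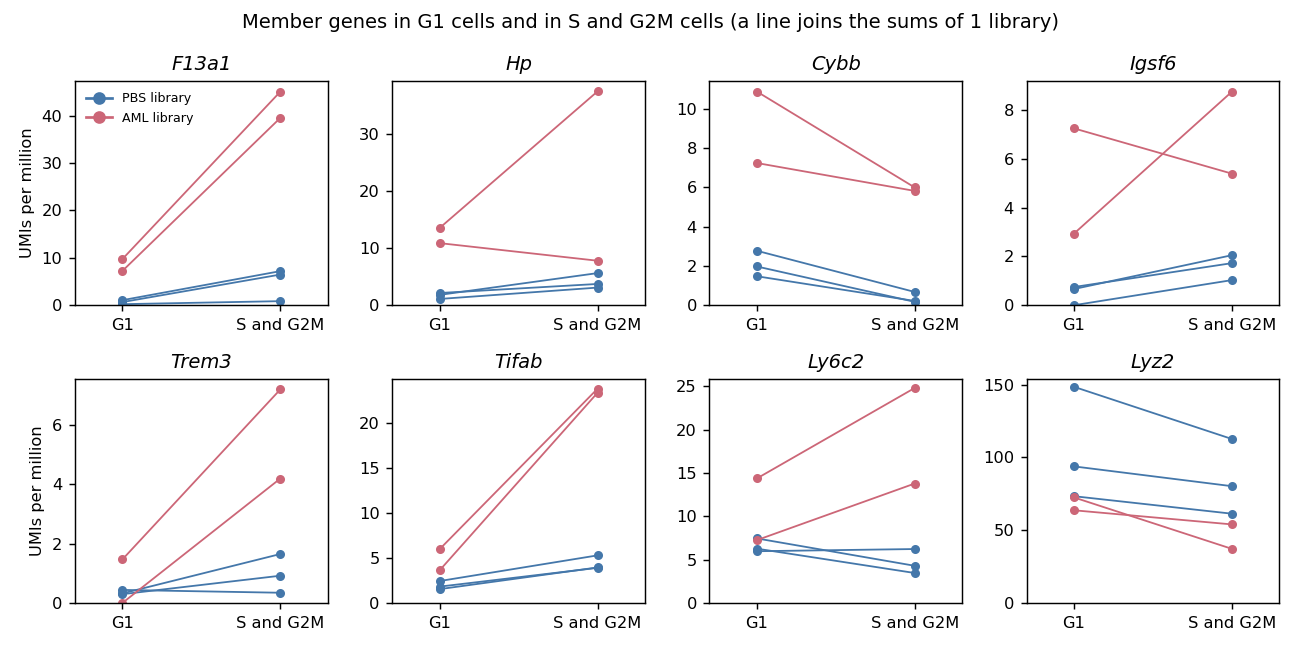
Level of each gene in UMIs per 1000000 (y axis, linear, from 0) in G1 cells and in S and G2M cells (x axis), with a line for each PBS library (blue) and AML library (red). In the 3 PBS libraries F13a1 and Tifab are higher in S and G2M than in G1 and Cybb is lower. The G1 points of AML replicate 1 rest on 0 to 3 UMIs of each gene except Lyz2, so that its lines give no direction for these genes.

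Other genes of the monocyte and granule programs were taken from lists. The lists were chosen with earlier results of these data known, so that their AML against PBS calls are no independent support. Among 16 monocyte regulators and receptors, all tested, 1 was higher in AML and 0 lower (edgeR, adjusted p under 0.05), with 5 and 1 at an unadjusted p under 0.05 and 4 and 0 called by DESeq2. Over all 14364 genes tested, 792 were higher and 719 lower at an unadjusted p under 0.05 in edgeR, and DESeq2 called 53 and 26. Among monocyte surface and effector genes 3 of 30 tested were higher and 0 lower, with 12 and 1 at an unadjusted p under 0.05 and 4 and 0 by DESeq2. The median log2 fold change was 0.38 and 0.50 in these lists and -0.03 over all genes tested. Irf8, a transcription factor of monocyte and dendritic fate, rose from 22.7, 9.80 and 26.8 CPM to 106 and 80.3 CPM. Ly86, the partner of the Toll-like receptor relative RP105, rose from 26.6, 12.8 and 36.3 CPM to 216 and 145 CPM. Their log2 fold changes were 2.17 ± 0.33 and 2.78 ± 0.36 (edgeR adjusted p = 0.0183 and 0.00708). The membrane proteins Ms4a4c and Ms4a6c rose by 1.94 ± 0.29 and 1.74 ± 0.27 (edgeR adjusted p = 0.0183 for each).

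Granule genes, many of them made at the granulocyte-monocyte stage, had 1 of 12 tested higher and 0 lower (edgeR, adjusted p under 0.05). At an unadjusted p under 0.05 in edgeR 5 were higher and 2 lower, and DESeq2 called 3 and 0. Over all 14364 genes tested these counts were 22 and 1, 792 and 719, and 53 and 26. Ctsg, cathepsin G, rose from 50.3, 48.0 and 68.7 CPM to 142 and 190.3 CPM (log2 fold change 1.54 ± 0.26, edgeR adjusted p = 0.0250). None of 6 NADPH oxidase partners of gp91phox was called by edgeR or DESeq2, with 1 higher and 0 lower at an unadjusted p under 0.05. Among these partners Ncf1, named after its values were seen, was at 14.4, 13.1 and 14.7 CPM in PBS and at 28.3 and 26.4 CPM in AML, without overlap. Of 7 tested genes of TREM and DAP12 signalling, 0 were called by either tool, with 3 higher and 1 lower at an unadjusted p under 0.05. Leaving out PBS replicate 1 ended all 5 calls in edgeR, for Irf8, Ly86, Ms4a4c, Ms4a6c and Ctsg, and so did the own filter without shared barcodes. Irf8 was also lost without AML replicate 1 and after thinning to 2000 UMIs, Ms4a4c without AML replicate 3 or PBS replicate 3, and Ms4a6c and Ctsg without PBS replicate 2, and over all alternatives the adjusted p of the 5 genes reached 0.194, 0.0738, 0.239, 0.821 and 0.645. Ms4a4c was not called with Cluster 4 left out.

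Between the phases of PBS cells, the granule list had 5 of 9 genes tested higher and 2 lower (edgeR, adjusted p under 0.05), where 30.1% of all genes tested were higher and 26.6% lower. Ctsg rose by 2.23 ± 0.12 and Ms4a3, a marker of granulocyte-monocyte progenitors, by 1.66 ± 0.13, while Camp, a late neutrophil granule gene, fell by 1.76 ± 0.37 on the log2 scale. Camp was not called by DESeq2 or without the library block. The monocyte regulators had 2 genes higher and 5 lower of 14. Irf8 rose by 1.00 ± 0.09, and Bcl6 and Irf5 fell by 0.92 ± 0.13 and by 0.81 ± 0.15. Without the library block Irf8 and Irf5 were not called (edgeR adjusted p = 0.114 and 0.0586). The surface and effector genes had 7 higher and 8 lower of 25, and Ly86 rose by 1.55 ± 0.11 while Ctss, cathepsin S, fell by 1.31 ± 0.10 and Pirb fell by 1.28 ± 0.30. Ctss, like Cybb, was high in Cluster 6, at 536 CPM.

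The oxidase partners had 2 genes higher and 2 lower of 6, where 30.1% of all genes tested were higher and 26.6% lower. The cytosolic subunit Ncf1 fell by 0.67 ± 0.11, as Cybb did, while the GTPase Rac1 rose by 0.44 ± 0.04. In the TREM and DAP12 list, 1 of 6 genes was higher and 2 lower, against the same shares. Nothing about either list is read from these counts. Card9, an adaptor below DAP12 receptors, rose by 1.19 ± 0.27, and Treml2 and the kinase Syk fell by 0.39 ± 0.09 and by 0.22 ± 0.06 on the log2 scale. Without the library block Treml2 (edgeR adjusted p = 0.0918) and Syk were not called. Syk was also not called by DESeq2, or by edgeR without PBS replicate 1.

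Over the 38 library-by-cluster sums with at least 20 cells, 5 other genes were most like the mean profile of the 8 on a log2(CPM + 1) scale. They were Elane (Pearson r 0.841), Cst3 (0.795), Anxa3 (0.772), Mpo (0.762) and Ctsg (0.737), among 7725 genes ranked. These sums share libraries and depth, and the correlations are descriptions. Elane and Mpo encode neutrophil elastase and myeloperoxidase, and Cst3 encodes cystatin C. Within the 8, Trem3, Igsf6, Hp, F13a1 and Tifab correlated with the mean of the others at 0.915, 0.906, 0.904, 0.856 and 0.802, Ly6c2 at 0.594 and Cybb at 0.416, and Lyz2 at -0.09.

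AML replicate 2 could only be described over barcodes outside the cell table. In its 10155 barcodes found in no other library, with 4508500 UMIs in all, F13a1 was at 28.4 CPM, Tifab at 17.7 CPM, Ly6c2 at 35.5 CPM, Hp at 7.10 CPM, Cybb at 3.99 CPM and Igsf6 at 3.11 CPM. These 6 lay above the level over all barcodes of each PBS library, where F13a1 was at 3.32, 0.543 and 3.76 CPM, Tifab at 2.48 to 3.78 CPM and Ly6c2 at 3.71 to 5.20 CPM. Trem3, on 4 UMIs, was at 0.887 CPM, between the PBS values. Lyz2 was at 59.0 CPM, below the PBS values of 68.9 to 131 CPM. A majority of all genes tested, 56.8%, also lay above the PBS libraries in this set, and the 6 of 8 is read against that share. By an own filter of at least 1000 genes and at most 10% mitochondrial UMIs, only 106 cells of this library remained, 75 of them with a barcode found in another library.

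Levels were also read without barcodes that occur in more than 1 library. Among own-filter cells whose barcode was in no other library, a choice made after seeing the data, F13a1 was at 1.76 CPM in PBS replicate 1, 0.882 CPM in PBS replicate 3, 39.6 CPM in AML replicate 1 and 9.28 CPM in AML replicate 3. Both AML values stayed above both PBS values, and the value of AML replicate 3 was well under its level in kept cells. Hp was at 1.69 and 0.561 CPM in those PBS libraries and at 1.802 and 4.25 CPM in those AML libraries, where AML replicate 1 rested on 2 UMIs. PBS replicate 2 had only 4 such cells. Without the barcodes kept in more than 1 library, F13a1 had a log2 fold change of 3.31 ± 0.43 and Ly6c2 of 1.75 ± 0.27.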

How the data were processed

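Bone marrow LSK cells of 6 libraries were analysed. Per the labels, libraries were made with Chromium GEM V3 chemistry, and the submitters' processing notes name Cell Ranger 7.0.1, R 4.2.2, Seurat 4.3.0 and GRCm38. The matrices deposited by the authors hold raw UMI counts per gene and barcode. The authors' cell table gave cluster, class and phase, and its UMI and gene totals equalled the matrices for all 16822 cells. How cells were filtered and doublets treated: not given in the sources used here.

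Counts were summed per library, or per library and phase (at least 20 cells), and tested with edgeR 4.0.16 in R 4.3.3 (TMM, filterByExpr, quasi-likelihood F test, two-sided, Benjamini-Hochberg adjustment over all genes, threshold 0.05). SE is the log2 fold change divided by the root of F. CPM are UMIs per 1000000 of the plain library total. Cells were thinned without replacement to 2000 UMIs for shares. Intervals are exact Clopper-Pearson at 95%, and a count of 0 was given the limit of 3 counts. AML replicate 2 has no cells in the table, so that 3 against 2 libraries were fitted. Alternatives were DESeq2 1.42.0, its size factors, no filter, a replicate block, leaving out libraries or clusters, thinning, the 5% deepest cells left out as possible doublets, and an own filter on barcodes.

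The 8 genes and the gene lists were chosen with earlier results of these data known. List genes were named by a rule (the 3 largest absolute log2 fold changes among genes called in a list and comparison), and the 5 most similar genes by Pearson correlation. Some genes that the rule selects are not reported here. The tests recovered changed genes on simulated data. Those genes were drawn only from well-expressed ones. The simulation does not cover counts as low as those of most of the 8 genes. Promoter sequences are from RefSeq and gene positions from GENCODE M21.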

Additional observations from a re-analysis of the deposited data

Results flagged for a closer look

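In AML replicate 2, which has no cell in the authors' table, 6 of the 8 genes lay above the level in the PBS libraries when all barcodes found in no other library were summed. F13a1 was at 28.4 CPM, Hp at 7.10 CPM, Cybb at 3.99 CPM, Igsf6 at 3.11 CPM, Tifab at 17.7 CPM and Ly6c2 at 35.5 CPM. They are listed because these barcodes enter no comparison of kept cells. In the same barcodes 56.8% of all genes tested lay above the PBS libraries, and the library had a median of 320 UMIs per barcode, against 3770 to 9246.5 in the PBS libraries.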

How the results depend on the processing

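All 8 genes kept the sign of their AML against PBS log2 fold change under each of the 16 refits in which they had a value (Trem3 had 15), and F13a1 ranged from 2.93 to 3.99, Hp from 1.37 to 3.16, Cybb from 1.65 to 3.91, Igsf6 from 1.803 to 2.69, Trem3 from 2.25 to 3.17, Tifab from 1.89 to 2.67, Ly6c2 from 0.28 to 2.64 and Lyz2 from -1.15 to -0.59. Counts of genes called over the whole table moved more. Against 22 higher and 1 lower, DESeq2 called 53 and 26, no filter on low counts 227 and 165, the own filter on 6 libraries 59 and 16, thinning to 2000 UMIs 9 and 0, leaving out Cluster 4 11 and 1, leaving out Clusters 6 to 8 23 and 0, and leaving out the deepest 5% of cells 17 and 0. Without single libraries the counts ran from 1 to 279 higher and from 0 to 140 lower, with 279 and 140 without AML replicate 3, 1 and 1 without PBS replicate 1, 7 and 1 without PBS replicate 2, 20 and 0 without AML replicate 1, and 21 and 2 without PBS replicate 3. With 1 AML library left, that library is assumed to vary like the PBS libraries. Own-filter cells whose barcode occurred in 1 library only, a choice made after seeing the data, gave 2 and 0, without PBS replicate 2, which had 4 such cells. In the edgeR fits with 0 lower calls, 255 to 721 genes were lower at an unadjusted p under 0.05. The cause of these moves was not tested.

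Replicate numbers are only shared numbers here. The replicate block gave 61 higher and 30 lower, and the deviations of same-numbered libraries correlated at -0.10 and -0.13 over genes, with 2 pairs. In the phase comparison, against 3868 higher and 3411 lower, the fit without the replicate block called 1304 and 890, and DESeq2 called 1688 lower. Ly6c2 turned from -0.29 to 1.93 without Clusters 6 to 8, an alternative chosen after seeing the data. Ly6c2 passed at -0.65 without PBS replicate 3, and Lyz2 at -0.18 without PBS replicate 1. Totals of 201 to 1216 UMIs for the 7 genes other than Lyz2 limit what shares of cells can show, and 3 against 2 libraries limit every AML comparison.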
